A study of Mus musculus with 3 samples.

Results

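Of the 59626 peaks of accessible chromatin that lay on chromosomes 1 to 19 in wild-type islets, 11700 (19.6%, Wilson 95% interval 19.3 to 19.9) had no peak over them 1 week after Taf4 inactivation and were overlapped by a peak again at 5 weeks. These regions were chosen by the peak calls themselves: a WT peak had to overlap a 5 week peak by at least 1 bp and no 1 week peak. Their absence at 1 week and presence at 5 weeks is therefore their definition and not a result. Of the 11700 regions, 1564 lay at promoters, from 1000 bp before to 100 bp after a start of a protein-coding gene, and 10136 were distal.

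The peaks came from ATAC-seq, in which a transposase inserts sequencing adapters into open chromatin, on cells dissociated with Accutase from mouse islets of Langerhans. The 3 groups, wild type (WT), Taf4 KO at 1 week and Taf4 KO at 5 weeks after inactivation, had 1 library each. In the mice of the study, floxed Taf4 was deleted in adult beta cells by the tamoxifen-inducible Ins1::Cre-ERT2 transgene. The Taf4+/+ controls carried the transgene and received tamoxifen too. Staining in the study found Taf4 lost from beta cells and kept in glucagon-expressing cells. The strain was labelled C5LBl6 in all groups, and the number of animals behind each library was not given in the sources used here. Without replicates no difference could be tested, and every value below describes these libraries. Wilson 95% intervals are given for shares and take in the error of counting alone.

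Taf4 is a subunit of TFIID, the general transcription factor that recognises core promoters and helps to load RNA polymerase II. Promoters of widely used genes mostly lie in CpG islands and stay open in most cell types. Distal accessible regions include enhancers, which are bound by cell-type factors such as Foxa and homeodomain proteins, and sites of CTCF, a zinc finger protein that marks the borders of chromatin loops in many cell types.

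Matches to the CTCF binding pattern were more frequent in the distal regions than in the other distal WT peaks, so the 4 strongest distal regions that held such a match and lay outside exons are shown, followed by the 2 strongest such peaks called in all 3 lists. The sequences were read from mm9, on the strand on which the pattern runs forward, with the 13 matched letters in capitals and 35 bases on each side, and each is named after the gene with the nearest start.
Eif4g3: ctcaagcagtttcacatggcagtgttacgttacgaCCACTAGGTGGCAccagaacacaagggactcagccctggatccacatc
Eif4b: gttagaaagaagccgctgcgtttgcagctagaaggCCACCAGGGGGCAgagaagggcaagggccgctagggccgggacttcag
Esyt1: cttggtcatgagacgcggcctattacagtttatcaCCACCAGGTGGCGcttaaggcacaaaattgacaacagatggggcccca
Rcn3: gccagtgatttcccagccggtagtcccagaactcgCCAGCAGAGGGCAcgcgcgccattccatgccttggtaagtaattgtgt
Chd2: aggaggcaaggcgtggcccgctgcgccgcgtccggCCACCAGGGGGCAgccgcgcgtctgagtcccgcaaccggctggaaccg
Gm10428: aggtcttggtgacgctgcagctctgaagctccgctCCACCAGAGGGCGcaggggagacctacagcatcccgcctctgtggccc
The Eif4g3 run (chr4:137524243-137524325, plus strand) belonged to a peak with a -log10 q, the caller's measure of confidence, of 11.8 in WT and 14.8 at 5 weeks. The Eif4b run (chr15:101896217-101896299, minus strand) had 11.6 and 21.8, the Esyt1 run (chr10:127973471-127973553, minus strand) 11.3 and 14.2, and the Rcn3 run (chr7:52335358-52335440, plus strand) 11.3 and 8.80. The nearest 1 week peak was 24.5, 33.9, 6.27 and 17.1 kb away. The comparison peaks near Chd2 (chr7:80763365-80763447, minus strand) and Gm10428 (chr11:62570381-62570463, plus strand) had 23.0 and 20.9 in WT, 5.84 and 17.9 at 1 week and 16.6 and 34.8 at 5 weeks. The 13 letters of the Eif4b region and of the Chd2 peak were the same.

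For promoters, the 150 bases before the most upstream start are shown for the 3 strongest regions and for the strongest of the ribosomal protein and polymerase II genes whose run met no exon and lay inside the WT peak. Capitals mark matches, on either strand, to the letters of 7 factors of widely used promoters that are spelled out with their shares below.
Mrpl45: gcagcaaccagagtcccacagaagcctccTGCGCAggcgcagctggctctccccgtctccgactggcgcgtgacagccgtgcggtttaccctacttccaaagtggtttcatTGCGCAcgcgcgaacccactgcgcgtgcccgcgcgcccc
Cpsf1: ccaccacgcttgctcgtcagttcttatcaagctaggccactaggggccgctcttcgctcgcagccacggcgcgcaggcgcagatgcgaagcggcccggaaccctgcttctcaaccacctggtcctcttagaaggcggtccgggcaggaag
5830415F09Rik: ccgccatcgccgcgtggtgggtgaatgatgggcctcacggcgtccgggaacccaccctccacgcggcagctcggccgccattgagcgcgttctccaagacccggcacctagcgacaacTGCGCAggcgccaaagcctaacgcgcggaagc
Rps25: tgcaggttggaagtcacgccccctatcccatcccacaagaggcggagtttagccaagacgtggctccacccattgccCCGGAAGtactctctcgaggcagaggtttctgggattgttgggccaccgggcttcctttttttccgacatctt
Polr2e: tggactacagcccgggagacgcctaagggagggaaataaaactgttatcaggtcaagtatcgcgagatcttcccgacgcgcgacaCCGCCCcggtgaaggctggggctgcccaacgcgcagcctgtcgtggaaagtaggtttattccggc
Mrpl45 (chr11:97176880-97177029, plus strand) and 5830415F09Rik (chr4:46402310-46402459, minus strand) held TGCGCA, the core of the NRF1 site, which Mrpl45 carried at 2 places. Rps25 (chr9:44215647-44215796, plus strand) held the ETS letters CCGGAAG and Polr2e (chr10:79502541-79502690, minus strand) a GC box on the opposite strand. In the Cpsf1 run (chr15:76438022-76438171, minus strand) none of the 7 was found.

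The regions were called in WT with intermediate strength. Fold here is the caller's enrichment over the local background, and both fold and -log10 q belong to their own list, so they rank peaks within it. Promoter regions had a median WT -log10 q of 5.03 (quartiles 2.52 and 10.01), against 12.2 in promoter peaks found in all 3 lists and 1.70 in those of the WT list alone. Distal regions had a median of 2.65, against 4.73 and 1.78. Their median fold was 3.28 at promoters and 2.91 at distal sites, and 4.31 and 3.45 for peaks in all 3 lists. The regions were also shorter, with a median of 708.5 bp at promoters against 1037 bp and of 382 bp at distal sites against 520 bp. At 5 weeks the peaks over them reached a median -log10 q of 6.70 at promoters and 4.21 at distal sites, where peaks in all 3 lists reached 14.7 and 9.40. They thus ranked below the shared peaks in both lists that held them. The classes are made from the calls, which depend on strength, so this order follows in part from the rule.

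**Figure D1:**
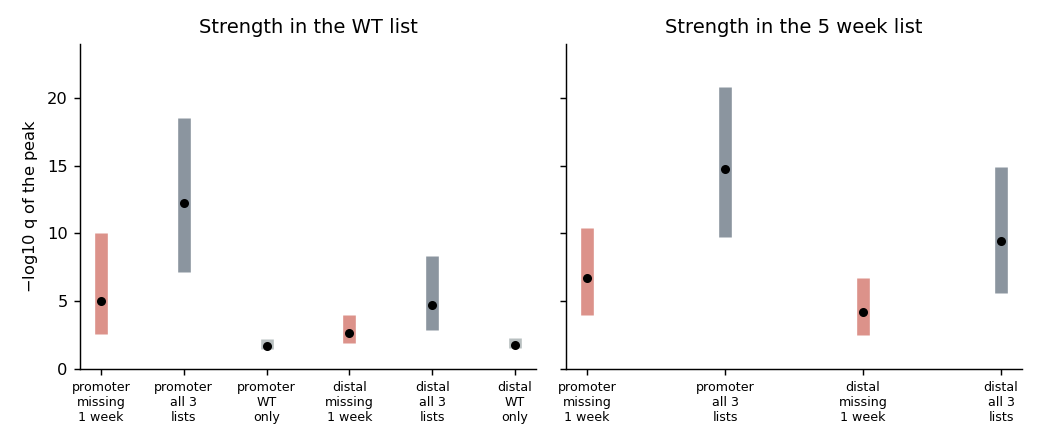
Strength of WT promoter and distal peaks by the lists that held them, as the authors' -log10 q in the WT list (left) and of the overlapping peak in the 5 week list (right). Bars run from the lower to the upper quartile and points are medians. Peaks missing at 1 week only had medians of 5.03 and 2.65 in WT, between those of peaks in all 3 lists and of peaks in WT alone. This order follows in part from the rule.

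The nearest 1 week peak lay a median of 10512 bp from the regions, and 8807 regions (75.3%) were over 5 kb from any. In peaks of WT alone, which also lack a 1 week overlap, the median was 10461 bp. The distance was thus not particular to the regions. Just inside the rule were 36 regions with a 1 week peak within 50 bp, with a median WT -log10 q of 1.73 and of 4.06 at 5 weeks. Just outside it were 80 peaks of all 3 lists whose 1 week overlap was under 50 bp, with a median of 1.90 for the WT peak, 2.22 for the 1 week peak and 3.26 for the 5 week peak. A further 120 regions overlapped their 5 week peak by less than 50 bp, with medians of 1.64 and 2.36. Both sides of the limit held weak peaks.

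The background read level recovered from fold and p was 3.66 reads for WT, 6.45 for 1 week and 9.38 for 5 weeks. Autosomal peaks numbered 59626, 138129 and 150230. Of the WT peaks, 38.5% had no 1 week peak over them and 20.3% no 5 week peak. The 1 week background level was 1.77 times that of WT, and the 1 week list held more autosomal peaks than the WT list. In windows of 1 Mb centred on the regions it held fewer, at a median of 31 against 51 in WT. Around peaks of WT alone the medians were 34 and 44. Of 9 beta cell markers, 9 had a promoter peak in WT and 8 in each Taf4 KO list. With the libraries in the same order, endothelial markers numbered 1, 2 and 3 of 4 and stellate markers 0, 0 and 3 of 4. Acinar markers numbered 0, 0 and 1 of 5, immune markers 0, 1 and 0 of 4, alpha cell markers 4, 4 and 5 of 5, delta cell markers 0, 1 and 2 of 2 and duct markers 2, 1 and 2 of 3, where the ductal factor gene Sox9 was itself among the regions. In such bulk libraries a lower number of cells of a type and lower accessibility per cell cannot be told apart, and the part of cell composition and of depth in the results was not tested.

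In the full lists, 12.5% of the WT promoter peaks and 21.5% of the distal WT peaks belonged to the group. The direction turned with a reciprocal overlap of 50%, at 23.7% and 21.7%, and where every list was held to a minimum -log10 q of 5, at 34.2% and 28.4%. Among WT peaks of like -log10 q, from the weakest to the strongest of 5 groups, the share was 35.2%, 33.9%, 23.5%, 13.48% and 5.76% at promoters and 22.2%, 28.8%, 26.3%, 15.3% and 4.51% at distal peaks, so that promoters stood higher in 3 of the groups and lower in 2. Within the group 13.4% (12.8 to 14.0) were promoters, 4.98% lay in exons, 42.8% in introns and 38.9% between genes. Peaks in all 3 lists were at promoters in 29.7% and peaks of WT alone in 2.54%. Distal regions lay nearer to genes than the shared distal peaks, with 27.6% within 10 kb of a start against 20.4%, and 12.9% more than 100 kb away against 21.7%. Promoter regions had a median CpG ratio, observed over expected from base composition, of 0.73, against 0.80 in shared promoters, and 8.18% (6.93 to 9.65) served a divergent pair of genes, against 9.79% (9.24 to 10.4).

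Taf4 itself (Taf4a in the annotation) had a pair of WT promoter peaks. The peak within the gene at an alternative start, at chr2:179709653-179710200, belonged to the group, with a -log10 q of 5.83 in WT and 4.49 at 5 weeks. The peak over the main start, at chr2:179711067-179711963, was in all lists, with 8.53, 1.32 and 8.01. Accessibility at the promoter does not measure the deletion.

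The 12 promoter regions with the highest WT -log10 q were among the strongest peaks of the WT list. They had values from 23.5 to 31.6 in WT, at the 97.3 to 99.4 percentile of the list, none at 1 week, and 13.1 to 31.5 at 5 weeks. Mrpl45, encoding a mitochondrial ribosomal protein, led with 31.6 in WT and 17.1 at 5 weeks (chr11:97176768-97177339). Cpsf1, encoding a subunit of the complex that cleaves and polyadenylates pre-mRNA, followed with 28.9 and 31.5 (chr15:76437652-76438282), and its 5 week peak was the only one of the 12 with a higher value than in WT. 5830415F09Rik had 28.5 and 13.1, and Wdr18, with a role in ribosome assembly, had 27.8 and 25.3. The translation initiation factor gene Eif4b had 26.3 and 17.1, and Rpl22, encoding a protein of the large ribosomal subunit, had 24.3 and 20.2. The other six were 1500011H22Rik, Man1b1 (an endoplasmic reticulum mannosidase), A730011L01Rik, Rhot1 (a mitochondrial GTPase), Pias4 (a SUMO ligase) and Ubr4 (a ubiquitin ligase). The nearest 1 week peak was between 1.39 kb, at Wdr18, and 56.4 kb, at 1500011H22Rik.

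Ranked by the 5 week peak, Rdbp, which encodes a subunit of the polymerase pausing factor NELF, came first among the promoter regions with a -log10 q of 33.3 at 5 weeks and 20.1 in WT. It was followed by Cpsf1, C330019G07Rik with 29.8 and 18.1, Ap3d1, a subunit of the AP-3 vesicle adaptor, with 29.8 and 17.8, and Dohh, the enzyme that completes hypusine on eIF5A, with 28.2 and 17.8. These promoters, picked by this value, lay at or above the 98.8 percentile of the 5 week list.

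The strongest distal region lay 9.25 kb from the start of Trpv4, a cation channel gene, at chr5:115117422-115117937. It had a -log10 q of 27.4 and a fold of 7.82 in WT, and 19.3 and 4.91 at 5 weeks. Regions near Hnrnpa3, Dync1h1, Nr1d1, Fdps, Slc39a11, Xylt1 and Sgca followed with WT values from 21.4 to 25.7. All 8 lay between genes, from 2.77 kb (Sgca) to 350.7 kb (Slc39a11) from the nearest start. The region near Nr1d1, a circadian repressor, had 25.4 in WT and 26.7 at 5 weeks and was also the strongest distal region at 5 weeks, ahead of those near 2010107G23Rik with 25.4, Fam46b with 24.3, Zfp236 with 23.5 and Kpna2 with 23.3. The Hnrnpa3 region was the weakest of the 8 at 5 weeks, with 4.25. None of these 12 distal regions held a CTCF match.

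A match to the CTCF pattern in the central 300 bp was found in 682 of 10136 distal regions (6.73%, 6.26 to 7.23), in 541 of 25190 distal peaks of all 3 lists (2.15%, 1.98 to 2.33) and in 91 of 10955 distal peaks of WT alone (0.831%, 0.677 to 1.02). Read the other way, 1320 of 47116 distal WT peaks held a match. Of these, 51.7% (49.0 to 54.4) were missing at 1 week only, against the share of 21.5% among all distal WT peaks. A further 41.0% were in all 3 lists, 6.89% in WT alone and 0.455% missing at 5 weeks only. A match is a description of letters and not a measure of CTCF binding.

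The higher share at CTCF matches was present at every GC content and every strength. In the least GC-rich surroundings 22.6% (16.7 to 29.8) of distal WT peaks with a match belonged to the group and 8.18% of those without one, and in the most GC-rich 73.0% (68.4 to 77.1) and 33.3%. In the weakest of 5 groups by WT -log10 q, cut on all WT peaks, the shares were 46.1% and 22.001%, and in the strongest 12.5% (6.72 to 22.1, 9 of 72 peaks) and 4.39%. Regions with a match were narrower, with a median of 328 bp against 387 bp, and stronger, with a median -log10 q of 3.31 against 2.58 in WT and of 6.21 against 4.05 at 5 weeks. They lay nearer to a start, at a median of 15.0 kb against 22.1 kb, and somewhat farther from the nearest 1 week peak, at 11.7 kb against 9.996 kb. Under the alternative list settings, applied here after seeing the data, the share at matches was 47.6 to 57.1% and that at other distal peaks 14.3 to 27.6%. With a looser CTCF pattern the shares were 40.2% and 19.97%.

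**Figure D2:**
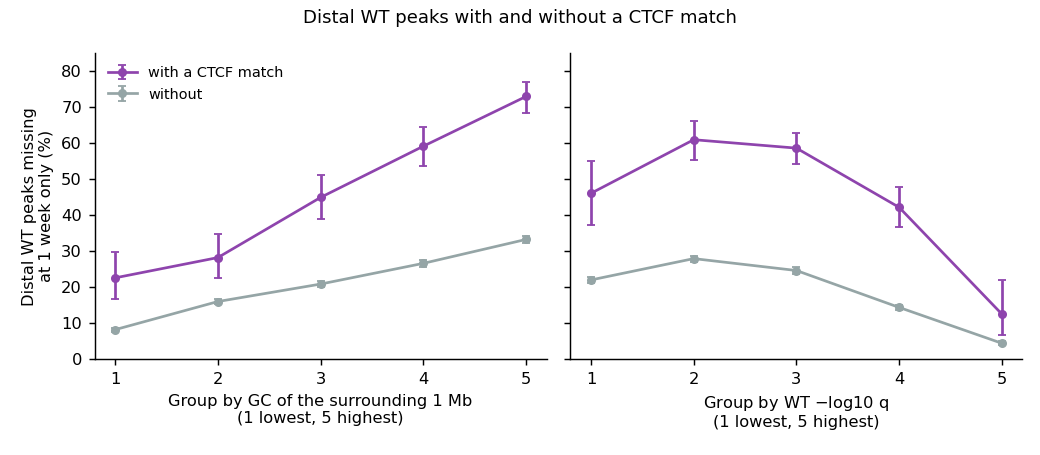
Share of distal WT peaks that were missing at 1 week only, for peaks with and without a CTCF match in their central 300 bp, divided into 5 groups by the GC content around them (1 Mb, left) and by WT -log10 q (right), with limits that cut all WT peaks into equal parts. Points are shares and bars Wilson 95% intervals. Peaks with a match lay above the others in each group, at 73.0% against 33.3% in the most GC-rich surroundings.

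Of the letters searched for islet and enhancer factors, those of Foxa, of homeodomain factors and, by a smaller margin, of Maf were less frequent in the distal regions than in the shared distal peaks. The Foxa core TGTTTAC was found in 6.78% (6.30 to 7.28) of regions and 9.95% of shared peaks, and the homeodomain core TAATTA in 5.72% (5.29 to 6.19) and 9.49%. These 2 were still more frequent than in distal peaks of WT alone, at 4.78% and 3.73%. The AP-1 letters TGANTCA stood at 14.3% and 13.0%, the Neurod1 E-box CAGATGG at 12.1% and 12.3%, the Maf core TGCTGA at 28.4% and 29.96%, and the CCAAT box at 29.4% and 30.4%. TATAAA was found in 8.63% and 11.1%. The Rfx pattern was found in 0.247% and 0.365% of these. Intervals overlapped for the Neurod1 E-box, the CCAAT box and the Rfx pattern. AP-1 letters were more frequent in the regions than in the shared peaks. They stood at 14.9% in distal peaks of WT alone and at 13.8% in all distal WT peaks, so they were not particular to the regions. Both strands were searched for each, and the share over all distal WT peaks was 8.05% for Foxa and 7.29% for TAATTA. The shared distal peaks had a median GC content of 49.0% in their central 300 bp and the distal regions one of 51.0%, and the part of base composition in these shares was not tested.

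At promoters the GC box GGGCGG of Sp and Klf factors was found in 50.6% (48.1 to 53.0) of the regions, in 60.3% of shared promoters and in 58.1% of all WT promoter peaks. The CACGTG E-box bound by Myc and Usf was found in 9.46% (8.11 to 11.0) against 7.13%, with 7.37% over all, and the YY1 letters AAGATGGCG in 3.71% (2.88 to 4.76) against 2.39%, with 2.50% over all. ETS letters (CCGGAAG) stood at 13.9% against 12.4% and 12.3% over all, NRF1 letters (TGCGCA) at 9.97% against 10.8% and 10.5%, CCAAT at 22.4% against 25.9% and 25.5%, and the CREB letters TGACGTCA at 2.56% against 1.67% and 1.75%. Intervals of the regions and of the shared promoters overlapped for ETS, NRF1 and CREB.

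The share of WT peaks that fell in the group rose with the GC content of the surrounding 1 Mb. In 5 equal groups of WT peaks it was 7.16%, 14.2%, 19.01%, 24.8% and 33.0%, from the least to the most GC-rich surroundings. At promoters it went from 1.70% (38 of 2229) to 27.0% (803 of 2974), and at distal sites from 8.41% to 35.04%. Peaks missing at 5 weeks only went the other way, from 3.56% to 0.210% of WT peaks, and peaks of all 3 lists fell from 76.4% to 44.8%. Peaks of WT alone rose less, from 12.9% to 21.97%.

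**Figure D3:**
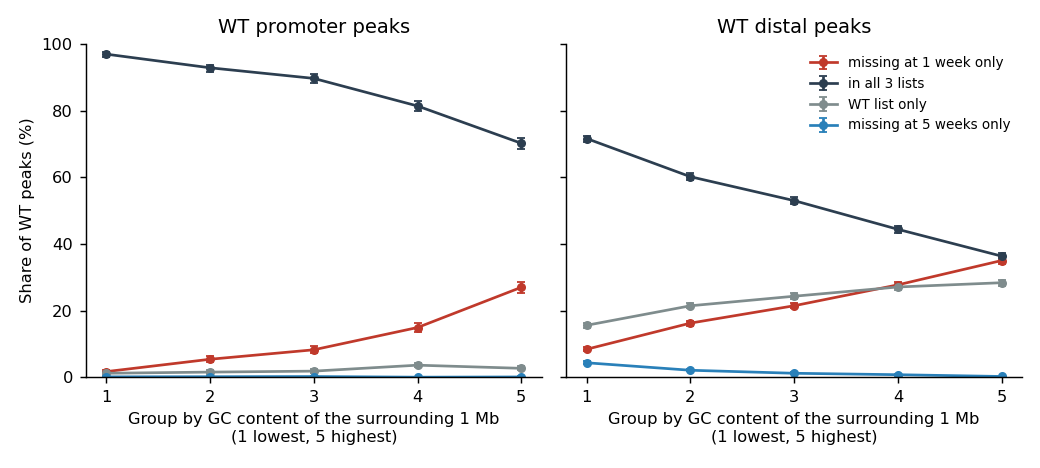
Share of WT promoter peaks (left) and distal peaks (right) in each of 4 classes by the lists that overlapped them, divided into 5 groups by GC content (1 Mb around the peak), with limits that cut all WT peaks into equal parts. Points are shares and bars Wilson 95% intervals. Peaks missing at 1 week only rose from 1.70% to 27.0% at promoters and from 8.41% to 35.04% at distal sites.

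This went with the surroundings and less with the base composition of the peak. Among distal peaks whose central 300 bp held at most 46.0% GC, 7.25% belonged to the group in the least GC-rich surroundings and 34.3% in the most GC-rich. Among those with at least 59.7% GC the shares were 7.76% and 36.3%. At promoters of that GC content they were 0.743% and 24.7%. By strength alone, the share of WT peaks in the group was 22.9%, 29.2%, 25.96%, 14.9% and 5.24% from the weakest to the strongest of 5 equal groups. The rise with GC was also present within groups of like strength. Among promoter peaks of the highest WT -log10 q, 9.89 or more, 7 of 1290 (0.543%) belonged to the group in the least GC-rich surroundings and 231 of 1550 (14.9%) in the most GC-rich.

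By chromosome the share ran from 11.6% (10.5 to 12.8) on chromosome 3, the least GC-rich autosome, to 33.9% (32.5 to 35.4) on chromosome 11, the most GC-rich. Chromosome 19 was next at 25.8% and chromosome 5 at 23.5%. Chromosome 11 had 4231 WT peaks, 4268 at 1 week and 6917 at 5 weeks, and chromosome 3 had 2955, 12020 and 10582. Around the regions the lists held a median of 51 WT peaks, 31 peaks at 1 week and 68 at 5 weeks per Mb, whereas around shared peaks they held 38, 41 and 65. Around peaks of WT alone, which also lack a 1 week overlap, they held 44, 34 and 65. These windows were centred on the peaks and counted them, so the counts follow in part from the rule.

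**Figure D4:**
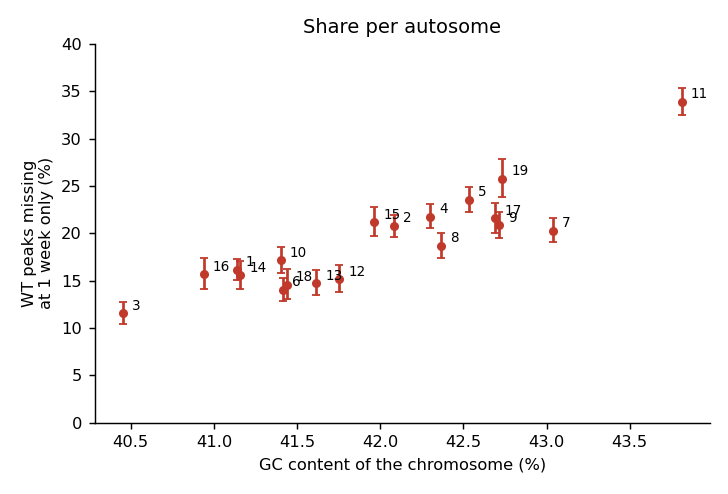
Share of WT peaks missing at 1 week only on each autosome (vertical axis) against the GC content of the chromosome (horizontal axis). Numbers name the autosomes and bars are Wilson 95% intervals. Chromosome 11 stood highest at 33.9% and chromosome 3 lowest at 11.6%.

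The 5 windows of 1 Mb with the highest share, among those with at least 20 WT peaks, all lay on chromosome 11. In the window from 101 to 102 Mb, which holds Ezh1, Psme3 and Becn1, 50 of 81 WT peaks (61.7%, 50.8 to 71.5) belonged to the group, and the lists held 81, 25 and 88 peaks there. In the window from 98 to 99 Mb, with Psmd3 and Pgap3, it was 40 of 66. The others were those from 120 Mb with 38 of 66, from 69 Mb with 41 of 73 and from 100 Mb with 47 of 84. Of 1241 such windows the median share was 17.95%, and 43 windows had none. The 5 windows were picked by their share of regions, so their low 1 week counts follow in part from the rule.

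After a region the next WT peak was also one in 26.9% (26.1 to 27.7), after a shared peak in 16.9% and after any WT peak in 19.6%. Within the least GC-rich surroundings the values were 10.2% after a region and 7.19% after any WT peak, and within the most GC-rich 35.8% and 32.8%. Of 8556 unbroken runs of such peaks 6408 were single peaks, and 75 held 5 or more. By the rule, no WT peak of a run is overlapped by a 1 week peak. The longest had 9 peaks over 73.0 kb around the keratin gene Krt80 (chr15:101146107-101219130), where the 1 week list had 0 peaks and the 5 week list 10. A run of 8 over 143.1 kb at Otud3 and Pla2g2d (chr4:138327021-138470150) held 1 peak at 1 week and 14 at 5 weeks. Another run of 8 over 73.4 kb (chr10:80680678-80754090) took in the promoters of Mrpl54, Zfr2, Apba3, Matk and Tjp3, with 0 and 11 peaks.

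In terms of genes, 1477 of 12793 autosomal genes with a WT promoter peak (11.5%) had all of their WT promoter peaks in the group, and a further 194 had some. Genes of cytosolic ribosomal proteins stood above this share, with 26 of 73 (35.6%, 25.6 to 47.1), of which 18 encode proteins of the large subunit and 8 of the small. Their WT -log10 q ran from 6.67 to 24.3 with a median of 11.1, and at 5 weeks from 4.06 to 22.6 with a median of 9.91. Rpl22 had 24.3 in WT and 20.2 at 5 weeks, and Rpl9 had 22.5 and 10.2. Rps25 had 19.5 and 9.04, and Rplp2 19.2 and 12.7.

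The genes of this list lay in GC-rich surroundings, with a median of 47.0% against 45.0% for all genes with a WT promoter peak. Within the 2 most GC-rich groups 22 of 46 (47.8%) belonged to the regions, against 19.9% of all genes there, and in the other groups 4 of 27 (14.8%) against 4.38%. With the list settings changed, 35.6 to 61.6% of the ribosomal protein genes and 9.44 to 33.8% of all genes were counted.

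Genes of RNA polymerase II, the general transcription factors and Mediator, the coactivator that bridges polymerase and activators, came next with 17 of 55 (30.9%, 20.3 to 44.0). Of these 8 were Mediator genes, 6 polymerase subunits and 3 subunits of TFIIH. Med20 had a WT -log10 q of 21.7 and 9.55 at 5 weeks, and Polr2e had 21.1 and 22.1. Med9 had 18.1 and 13.0, and Polr2j 17.5 and 14.5. In the 2 most GC-rich groups it was 13 of 28 (46.4%) and in the others 4 of 27 (14.8%). The 17 promoters were strong in WT, with a median of 14.3, and reached 9.17 at 5 weeks.

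In other lists of widely used genes the interval held the share of all genes. Proteasome subunits numbered 7 of 35 (20%, with an upper bound of 35.9%), among them Psmd3, Psmd2, Psmd12 and Psmd9. Genes of the nuclear pore numbered 4 of 20, namely Aaas, Nup133, Nup188 and Nup85. Splicing factors numbered 8 of 47 (17.0%), including Prpf3, Prpf6, Srsf1 and Snrpc, and respiratory complex I 6 of 39 (15.4%), including Ndufa7, Ndufs7, Ndufs1 and Ndufa9. The enzymes that charge tRNAs numbered 5 of 37, including Vars, Aars2, Lars2 and Yars, and lysosomal hydrolases and ATPase subunits 3 of 29, namely Gaa, Atp6v0a1 and Ctsa. The Ndufa7 peak also covered the window of Rps28, and that of Rps25 the window of Trappc4.

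Zinc finger genes of the Zfp series were rarely in the group, with 15 of 287 (5.23%, 3.19 to 8.45). Of those in the 2 most GC-rich groups it was 12 of 110 (10.9%), against 19.9% of all genes there. Zfp523 was the strongest, with 22.8 in WT and 16.6 at 5 weeks, and Zfp207, with 14.1 and 12.8, Zfp668 and Zfp646, which share 1 peak, came after it.

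Of 33 beta cell genes with a WT promoter peak, 1 (3.03%, 0.537 to 15.3) had all of its promoter peaks in the group and 2 more had some, and the interval held the 11.5% of all genes. Of the 33 genes 20 lay outside the 2 most GC-rich groups, where 4.38% of all genes were in it, and the other 13 within them, where 19.9% were. The gene was Abcc8, which encodes the sulfonylurea receptor, with a weak -log10 q of 2.13 in WT and 4.44 at 5 weeks. None of 9 alpha cell genes and none of 5 delta cell genes was in the group. Of 14 TFIID genes it held Taf9 (19.9 and 7.27), whose peak also covers the window of Rad17, of 18 genes of the unfolded protein response the sensor gene Atf6 (9.01 and 6.54), and of 13 chromatin remodelling genes Bptf of NuRF (8.29 and 6.82). Insulin signalling had 3 of 27, namely Rptor (13.4 and 10.3) of the mTOR complex, the glucose transporter gene Slc2a4 (7.03 and 7.38) and Tsc2 (6.06 and 9.18), and the circadian clock 2 of 19, namely Csnk1d and Hlf. Of 16 AP-1 and immediate early genes there was Fosl1, with 3.72 and 3.96.

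Of 3 Hox genes with a WT promoter peak, Hoxa7 (4.23 in WT and 4.29 at 5 weeks) and Hoxd1 (1.63 and 3.09) were in the group, and of 5 olfactory receptor genes Olfr1412 and Olfr1333. Of 3 endothelial genes there were Flt1 (2.28 and 1.28) and Egfl7 (1.41 and 3.89), of 5 duct genes Sox9 (2.15 and 2.84) and of 2 acinar genes Rbpjl (3.88 and 7.97). The single stellate gene and the single immune gene with a WT promoter peak were not in it. Over all genes the share was 11.5%, and these small lists had wide intervals, such as 20.8 to 93.9% for Hox genes. The member peaks named here were weak in WT. Among all WT promoter peaks of the 3 weakest of 5 groups by -log10 q, 35.2%, 33.9% and 23.5% belonged to the group.

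**Figure D5:**
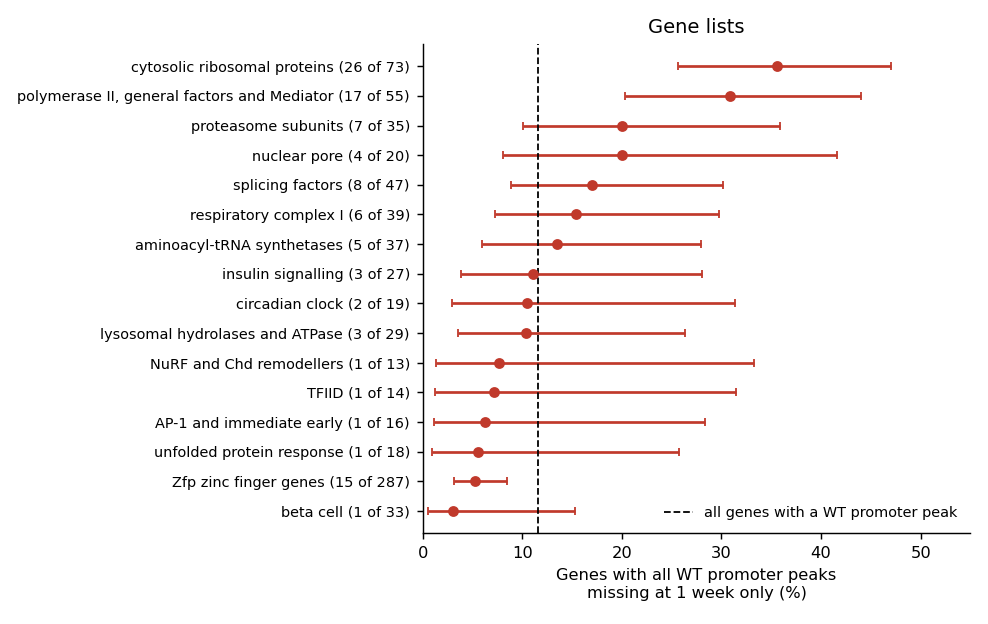
Share of the genes of each list whose WT promoter peaks were all missing at 1 week only, for lists with at least 10 genes that had a WT promoter peak (counts in brackets). Points are shares, bars Wilson 95% intervals and the dashed line the share of all such genes, 11.5%. Ribosomal protein genes (35.6%) and polymerase II, general factor and Mediator genes (30.9%) had intervals above the line, and Zfp genes (5.23%) one below it.

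Near endocrine genes the distal regions stood at about the share of all distal peaks. Within 100 kb of the starts of beta cell genes, 99 of 454 distal WT peaks (21.8%, 18.2 to 25.8) belonged to the group, near alpha cell genes 16 of 86 (18.6%) and near delta cell genes 15 of 70 (21.4%), against 21.5% of all distal WT peaks. Of 55 endocrine genes with distal WT peaks, 39 had at least 1 in the group and 16 had none, with a median of 2. The counts were highest at Hnf4a, a nuclear receptor gene, and Mafa, a beta cell factor gene, with 9 each of 16 and 18 distal WT peaks, and 0 of 11 at Cpe, Ffar1 and Ttr (loci chosen after their values were seen). All 4 distal WT peaks nearest to Ins2 among these genes were in it. The surrounding 1 Mb held 47.9%, 48.9% and 47.6% GC at Hnf4a, Mafa and Ins2. At Cpe, Ffar1 and Ttr it held 41.5%, 48.8% and 42.0%. Over all distal WT peaks the share in the group was 8.41% in the least GC-rich surroundings and 35.04% in the most GC-rich. The part of GC content in the counts at these loci was not tested. Among the strongest of the regions were one 45.4 kb from Pdx1, a factor needed for pancreas formation (chr5:148126619-148127290), with a -log10 q of 7.88 in WT and 3.48 at 5 weeks, and an intronic one 1.40 kb from a start of Pax6 (chr2:105510367-105510616), with 6.69 and 4.27. A region 30.5 kb from Mafa (chr15:75608576-75609087) had 6.48 and 6.34, and one 37.6 kb from Ins2 (chr7:149922930-149923194) had 5.48 and 3.92. Others lay near Fev, Pdx1, Hadh, Rbp4 and Hnf4a, with WT values from 5.55 to 6.56.

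Counted by the nearest start, the highest numbers of distal regions were at Abr, with 12 of its 17 distal WT peaks within 100 kb, and at the corepressor gene Rere, with 12 of 37. These genes were picked by their counts, which also grow with the number of WT peaks at a gene. Over all distal WT peaks the share in the group was 21.5%, and in the 2 most GC-rich groups it was 27.7% and 35.04%. Sec14l1 had 11 of 14, the polarity gene Pard3 11 of 25 and Camta1 11 of 32. At Abr the WT -log10 q ran from 2.71 to 8.50 and the median at 5 weeks was 7.46, with a CTCF match in 3 regions. At Sec14l1 it ran from 1.26 to 11.2 with a median of 6.70 at 5 weeks and a match in 3, and at Camta1 a match was found in 2.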

How the data were processed

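ATAC-seq libraries of islet cells from WT mice and from Taf4 KO mice at 1 week and 5 weeks were analysed, with 1 library per group, grouped by the genotype and time labels. Per the labels and the study's methods, the authors demultiplexed reads with bcl2fastq 2.17.1.14, mapped them to mm9 with Bowtie 1.0.0 keeping unique alignments, and called broad peaks in each library with MACS2 2.1.1. Duplicate removal and a shift to the insertion site were not given in the sources used here. The deposited lists give enrichment over local background as a fold, that is a ratio, and the deposited -log10 p and -log10 q are the caller's averages over a peak. The deposited whole-number score, which follows the -log10 q, was left aside. Reads that map to several places are absent, which affects repeated sequence.

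Peaks on chromosomes 1 to 19 were intersected from 1 bp of overlap with python 3.11.15, numpy 2.4.6 and pandas 2.3.3. The overlap classes were checked on simulated data. The recovered background was checked only on peaks simulated with a single read level and a single background each. The deposited values are averages over a peak, which that check does not cover. Genes and sequence came from NCBIM37, the build of mm9, with GENCODE vM1. Distances run from the midpoint of a peak. GC, CpG and letters were taken in the central 300 bp and surroundings in 1 Mb around it. Total reads are not in peak lists, so a background level was recovered from fold and p, as the percentile 1 of its values. It grows with read number and read extension. No p-value was computed.

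The regions, the 25 gene lists and the letters searched were chosen with earlier results of these data known. Genes were named by a rule: Taf4a, then the 12 promoter and 8 distal regions with the highest WT -log10 q, 5 of each by the 5 week value, up to 4 genes per list, 10 distal regions near endocrine genes, 5 windows, 3 runs and 5 genes with most distal regions. A distal region near an endocrine gene is not reported here. Among genes outside the rule, the loci Hnf4a, Mafa, Ins2, Cpe, Ffar1 and Ttr and those of the sequences shown were chosen after their values were seen. Where a symbol had several gene entries in a list, the one with the strongest WT promoter peak was used. Alternatives were a reciprocal overlap of 50%, a -log10 q of at least 3 or 5, lists of equal number, scaling to the WT background, a distance of 500 bp to any 1 week peak, a promoter window of 2000 and 500 bp, and GC of 100 kb. For the CTCF match, the ribosomal protein genes and the shares of promoter and distal peaks, the alternatives were chosen after seeing the data.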

Additional observations from a re-analysis of the deposited data

Results flagged for a closer look

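The 1 week list held 12225 peaks on chromosome X, which the rule for the regions leaves out. That was 8.13% of its peaks, against 1272 peaks (2.09%) in the WT list and 1451 (0.956%) in the 5 week list. It was pointed out because it lies in data that the comparisons did not use and stands above the WT level. No peak on chromosome Y was listed in WT or at 1 week, and 44 at 5 weeks. The cause was not tested.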

How the results depend on the processing

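The increase with GC content and the higher share at CTCF matches kept their direction in each alternative run, but the sizes moved and the cause was not tested. Requiring a -log10 q of 5 or more in every list gave 7266 regions, of which 1827 were among the 11700, since 1 week peaks were removed too. Requiring 3 or more in WT alone left 5227 of the 11700. The promoter share of the regions, 13.4%, was 22.5% under the reciprocal overlap, 28.5% and 46.2% at a minimum of 3 and 5, 20.5% at a minimum of 3 in WT alone, 19.02% in lists of equal number, 20.3% after scaling to the WT background and 15.9% in the wider promoter window. Promoters were in the group more often than distal peaks under the reciprocal overlap and at a minimum of 5, the reverse of the full lists. In the same order up to the scaling, the share of WT peaks in the most GC-rich surroundings was 34.6%, 41.0%, 51.5%, 29.3%, 30.7% and 27.4%, and it was 31.5% by GC of 100 kb. In the least GC-rich surroundings it was 13.48% under the reciprocal overlap, 11.8% at a minimum of 5, 3.704% at a minimum of 3 in WT alone, 6.67% in lists of equal number, 5.19% after scaling and 8.16% by GC of 100 kb. The median WT -log10 q of the regions, 2.77, was 3.82, 5.11, 8.45, 4.70, 3.37 and 3.59 in the order above. Genes with all promoter peaks in the group, 1477, numbered 2957 under the reciprocal overlap, and 2293 and 3579 at a minimum of 3 and 5. Leaving out regions near a 1 week peak (500 bp) gave 11520. When whole peaks were searched for the CTCF pattern, the shares were 45.9% with and 20.5% without a match. No replicate could be left out, as each group had 1 library. No paired analysis was possible because no group had a second library. Depth limits these calls, since a region under the threshold in 1 library may be open there, and an absent peak does not show closed chromatin.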
